A study of Mus with 6 samples.

Results

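Cadherins and non-clustered protocadherins were described in tissue labelled as basolateral amygdala from 6 mice, 3 wild type (WT) and 3 labelled as Cntnap4 knockout (KO). Members were the protein-coding genes named Cdh or Pcdh followed by a number, with or without a final x, leaving out Cdh5, Cdh9 and Cdh13. This rule found 32 genes among the 54532 genes of the table. Its wording uses no measured value, but the members were chosen with earlier results of these data known. All 6 mice are labelled male, with no age, strain or further treatment given in the labels. WT mice carry no labelled alteration. The other genotype is labelled CNTNAP4-KO, without the exon removed, the cells it was removed from or the origin of the line. Replicates are told apart only by number, so the p-values below measure the spread between these samples. The comparison asks how transcripts differ between WT and mice labelled as lacking Cntnap4, a membrane protein of neurons related to the neurexins.

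Cadherins are calcium-dependent adhesion proteins whose extracellular repeats bind partners on the facing cell. Classical type I and type II cadherins hold catenins on their cytoplasmic side and link through them to actin, and in brain they help sort neurons into nuclei and match the sides of synapses. Delta protocadherins lack the catenin-binding tail. Their cytoplasmic tails instead meet regulators of actin such as the WAVE complex, and they act in axon growth, dendrite shape and synapse remodelling.

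Libraries held 17647556 to 20813211 reads in genes, recovered from the deposited FPKM values (fragments per kilobase of gene, relative to sequencing depth), and 25482 to 26319 genes were above 0. Values for 3 libraries are given in the order of their replicate numbers. For Cntnap4 they were 2.03, 3.59 and 4.91 FPKM across WT and 1.61, 1.00 and 1.48 across KO, with no overlap (exact two-sided permutation p = 0.1, the smallest that 3 against 3 samples allow). KO stood at 38.9% of WT, so transcript of the gene remained, and whether its reads come from outside the removed part was not tested. Slc17a7, a marker of excitatory neurons of cortex and basolateral amygdala, measured 5.37 to 6.42 FPKM in WT, whereas Avp, a hypothalamic neuropeptide gene, measured 350 to 783 FPKM there. Differences below are between tissue pieces as dissected. KO replicate 1 had Xist at 43.0 FPKM and 0 reads on 4 Y-linked genes, against at most 0.0346 FPKM and 2831 to 4001 reads in the other 5 libraries, which goes against its male label. KO replicate 2 had the highest excitatory markers and nearly no Avp, at 2.20 FPKM. In bulk tissue, fewer cells of a type and less RNA per cell cannot be told apart.

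Delta protocadherins and neural cadherins dominated the family. Of the 32 members, 24 averaged 1 FPKM or more across the 6 libraries, 11 averaged 5 FPKM or more and 6 averaged 10 FPKM or more. Pcdh1 (18.4 FPKM), Pcdh10 (18.0), Pcdh9 (17.9), Cdh22 (13.2) and Cdh2 (13.0) had the highest means and together made up 47.1% of the summed FPKM of the family. The levels of Pcdh1, Pcdh10 and Pcdh9 overlapped across libraries, as did those of Cdh22 and Cdh2, so their order within these groups is not resolved. Below them came Pcdh8 (11.6 FPKM), Pcdh7 (8.69), Cdh4 (7.69), Pcdh17 (7.17), Cdh8 (6.68) and Cdh20 (5.82). Cdh12, at 0.756 FPKM, was the lowest of the 25 members at or above the mean of 0.5 FPKM needed for the test, and Cdh1, at 0.446 FPKM, was the highest of the 7 below it.

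**Figure D1:**
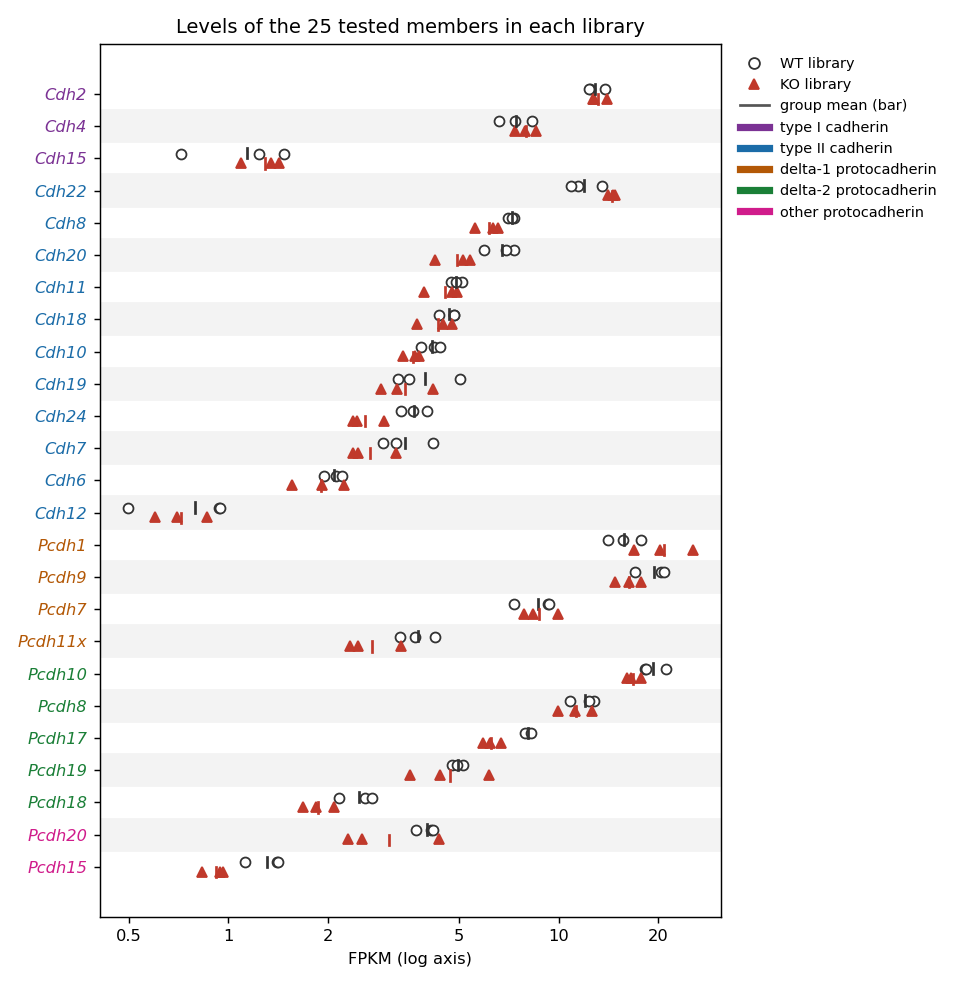
FPKM of each of the 25 tested members (log axis) in the 3 WT libraries (open circles) and the 3 KO libraries (red triangles), with short vertical bars at the group means and gene names coloured by class. Pcdh17, Cdh20, Cdh24, Cdh8, Cdh10, Pcdh10, Pcdh18 and Pcdh15 have every KO value below every WT value, and Cdh22 has every KO value above.

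No member passed the test across all genes, and most measured lower in KO by small amounts. The test was limma-trend on log2(FPKM + 0.5) over 16155 genes with Benjamini-Hochberg adjustment, a threshold of 0.05, and 3 samples per group. Of the 25 tested members 0 passed, against 0.0124% of all tested genes (2 genes), and the smallest adjusted p of a member was 0.200 in limma. Log2 differences, KO minus WT, were below 0 for 19 of the tested members and above 0 for 6, whereas 48.5% of all tested genes were below 0. Their median was -0.16, ranging from -0.43 (Cdh24) to 0.38 (Pcdh1), beside a median of 0.01 over all tested genes. An unadjusted p under 0.05 was reached by 9 of the 25, against 15.2% of all tested genes. Of these 9, 7 were lower in KO (background 6.85%) and 2 higher (background 8.36%). The groups did not overlap for 9 of the 25 (background 22.6%). Every KO value lay below every WT value for 8 of them (background 10.8%) and above for 1 (background 11.8%).

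Member genes are long, and over long genes in general the median difference was near 0. The tested members spanned a median of 154 kb of genome with a median deposited length of 7740 bases, against 24.9 kb and 4412 bases for the 13376 tested protein-coding genes. Among the 2059 tested protein-coding genes spanning at least 100 kb, the median log2 difference was 0.01, 49.1% were below 0 and 8.79% were lower at an unadjusted p under 0.05. Among the 8990 at least as long as the shortest tested member (3251 bases), 50.1% were below 0 and 7.05% were lower at that p. Removing the dependence of each library on gene length, an alternative chosen after seeing the data, left 19 of 25 members below 0 with a median of -0.15. What part gene length has in the member differences was not tested.

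**Figure D2:**
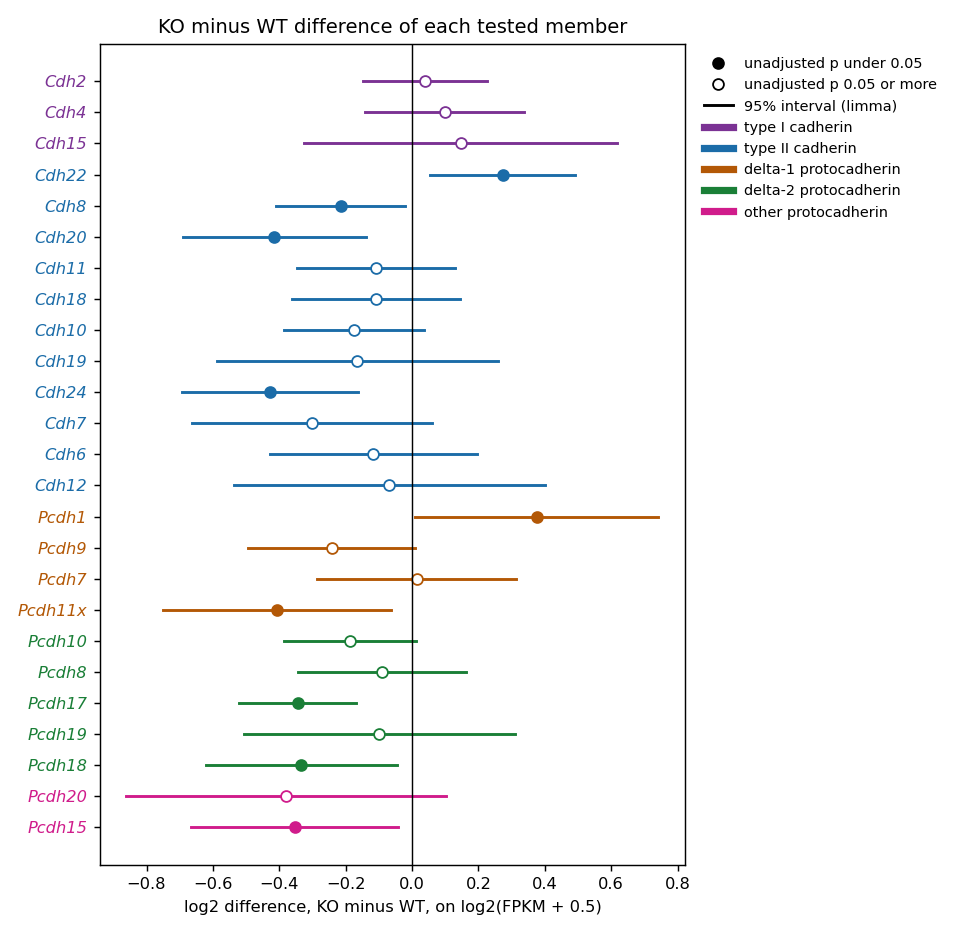
Log2 difference, KO minus WT, of each tested member on the log2(FPKM + 0.5) scale, with its 95% interval from limma; filled points have an unadjusted p under 0.05. The 19 points left of 0 include all 5 delta-2 protocadherins and 10 of 11 type II cadherins, and the intervals of 9 members exclude 0 before adjustment.

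Type I cadherins, the classical cadherins that include N-cadherin, showed small differences. All 3 tested genes had log2 differences above 0, between 0.04 and 0.15, and 0 reached an unadjusted p under 0.05. Cdh2, N-cadherin, which joins the sides of many excitatory synapses, measured 13.8, 12.4 and 12.3 FPKM across WT and 12.7, 14.0 and 12.8 across KO. The groups overlapped in part, with KO replicate 2 above all of WT, and the 95% interval of its log2 difference ran from -0.15 to 0.22. Cdh4, R-cadherin, measured 7.42 ± 0.844 FPKM across WT and 7.96 ± 0.584 across KO (SD, n = 3 each), again with overlap. Cdh15, M-cadherin, known from muscle and cerebellum, measured 1.23, 0.718 and 1.47 FPKM across WT and 1.42, 1.34 and 1.09 across KO. Its interval from -0.33 to 0.62 was the widest in the class, and its values rest on a mean of 74.8 reads per library.

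Type II cadherins, which mark particular nuclei and circuits of the forebrain, were lower in KO in 10 of 11 tested members, with a median log2 difference of -0.16. Class counts and sums cover members only, without Cdh5, Cdh9 and Cdh13. Over all tested genes 48.5% were below 0. Unadjusted p was under 0.05 for 3 lower genes (background 6.85%) and 1 higher gene (background 8.36%), and 0 passed after adjustment. With 11 genes, 1 higher gene is close to the background share. Cdh24, which binds catenins like other classical cadherins, measured 3.34, 3.63 and 3.98 FPKM across WT and 2.96, 2.38 and 2.44 across KO. All KO values lay below all WT values, and KO stood at 71.0% of WT. The gene (chromosome 14, 54631231 to 54641364, GRCm38) had the lowest log2 difference of the family, -0.43 ± 0.11 (SE; limma unadjusted p = 0.00642, adjusted p = 0.214). Cdh20 (chromosome 1, 104768529 to 104995481) measured 5.94, 7.32 and 6.90 FPKM across WT and 5.14, 4.23 and 5.40 across KO. KO replicate 2 was lowest, the groups did not overlap, and the log2 difference was -0.41 ± 0.12 (limma unadjusted p = 0.00922, adjusted p = 0.224).

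Cdh8 (chromosome 8, 99024471 to 99416471), a cadherin of striatal and prefrontal circuits, measured 7.35, 7.05 and 7.23 FPKM across WT and 6.54, 6.35 and 5.57 across KO. The WT libraries lay close together and KO replicate 3 was lowest, with a log2 difference of -0.22 ± 0.08 (limma unadjusted p = 0.0345, adjusted p = 0.294). Cdh10 also showed no overlap, at 4.21, 3.84 and 4.38 FPKM across WT and 3.38, 3.78 and 3.68 across KO, but KO replicate 2 came close to WT replicate 2, and its limma unadjusted p was 0.0908. Cdh22 (chromosome 2, 165111507 to 165234853) was the only tested type II gene with a higher KO mean. It measured 11.4, 10.9 and 13.5 FPKM across WT and 14.1, 14.8 and 14.6 across KO. All KO values lay above all WT values, with WT replicate 3 nearest, and the log2 difference was 0.27 ± 0.09 (limma unadjusted p = 0.0216, adjusted p = 0.269).

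The remaining type II genes overlapped between the groups. Cdh7 measured 3.44 ± 0.636 FPKM across WT and 2.69 ± 0.459 across KO (SD, n = 3 each), with KO replicate 2, at 3.21 FPKM, inside the WT range. Cdh19, known from glial cells of nerves, measured 5.01 FPKM in WT replicate 2 and 2.90 to 4.17 FPKM in the other 5 libraries. Cdh6, Cdh11, Cdh12 and Cdh18 had log2 differences between -0.12 and -0.07 with unadjusted p of 0.320 to 0.741 in limma, and the 95% interval of each held 0. Summed over the members of the class, type II cadherins measured 52.9, 53.7 and 53.9 FPKM across WT and 49.3, 49.0 and 49.8 across KO, without overlap. The type I sums of the groups overlapped, at 21.0 to 23.5 FPKM for WT and 22.3 to 23.5 FPKM for KO.

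**Figure D3:**
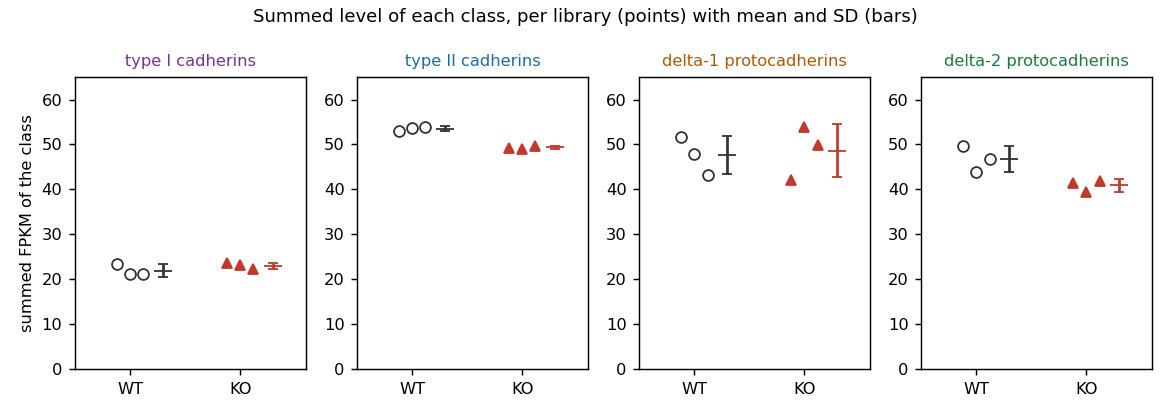
Summed FPKM of the type I cadherin, type II cadherin, delta-1 protocadherin and delta-2 protocadherin members in each library (points, in replicate order) with the group mean and SD (bars), on axes that start at 0. The type II and delta-2 sums do not overlap between WT and KO, whereas the type I and delta-1 sums do.

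Delta-2 protocadherins were lower in KO in all 5 genes, with a median log2 difference of -0.19 and 2 at an unadjusted p under 0.05. Over all tested genes 48.5% were below 0, 6.85% were lower at that p and 10.8% had every KO value below every WT value. Pcdh17, a synaptic protocadherin of corticostriatal and amygdala circuits, had the smallest p of the whole family. It measured 8.09, 7.89 and 8.25 FPKM across WT and 6.69, 6.17 and 5.91 across KO. Both groups were tight and clearly apart, and KO stood at 77.5% of WT. On chromosome 14 (84443563 to 84539002), it had a log2 difference of -0.34 ± 0.08 with a 95% interval from -0.52 to -0.17 (limma unadjusted p = 0.00244, adjusted p = 0.200). Pcdh18 (chromosome 3, 49743296 to 49757325) measured 2.59, 2.16 and 2.73 FPKM across WT and 1.68, 1.84 and 2.08 across KO. The highest KO value, in replicate 3, was just below the lowest WT value, in replicate 2, and the log2 difference was -0.33 ± 0.12 (limma unadjusted p = 0.0289, adjusted p = 0.285).

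Pcdh10, which is known to be enriched in basolateral amygdala and to take part in synapse elimination, measured 21.1, 18.3 and 18.4 FPKM across WT and 16.1, 17.8 and 16.6 across KO. The groups did not overlap, but KO replicate 2 came close to WT, and the log2 difference of -0.19 ± 0.08 had a limma unadjusted p of 0.0606. Pcdh8, whose transcript is switched on by neuronal activity, measured 12.8, 10.9 and 12.4 FPKM across WT and 12.6, 9.95 and 11.2 across KO. The groups overlapped, and the 95% interval of its log2 difference ran from -0.34 to 0.16. Pcdh19, an X-linked epilepsy gene whose product pairs with N-cadherin, measured 5.14, 4.76 and 4.93 FPKM across WT and 4.38, 3.55 and 6.14 across KO. Its KO libraries lay on both sides of the narrow WT range, and KO had an SD of 1.32 FPKM beside 0.194 FPKM in WT. As a class, delta-2 protocadherins summed to 46.8 ± 2.87 FPKM across WT and 40.9 ± 1.39 across KO (SD, n = 3 each).

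Delta-1 protocadherins did not share a direction. Pcdh1 (chromosome 18, 38185914 to 38212053) had the highest log2 difference of the family. It measured 17.7, 14.1 and 15.7 FPKM across WT and 16.9, 25.4 and 20.3 across KO. KO replicate 1 lay within the WT range and KO replicate 2 stood far above the rest, and the log2 difference was 0.38 ± 0.16 (limma unadjusted p = 0.0456, adjusted p = 0.319). Without KO replicate 2 the difference was 0.23, with a limma unadjusted p of 0.111. Pcdh11x, on the X chromosome (120290259 to 120910619), measured 4.23, 3.67 and 3.31 FPKM across WT and 2.46, 2.33 and 3.34 across KO. KO replicate 3 reached the lowest WT value while the other 2 KO libraries lay below all of WT, and the log2 difference was -0.41 ± 0.15 (limma unadjusted p = 0.0262, adjusted p = 0.279).

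KO replicate 1, the library with Xist, was the middle KO value for both X-linked members, Pcdh11x and Pcdh19. Without that library their log2 differences were -0.36 and -0.07, and the part of sex in them was not tested. Pcdh9, abundant in neurons and oligodendrocytes, measured 20.5, 20.9 and 17.0 FPKM across WT and 14.9, 17.8 and 16.3 across KO. WT replicate 3 lay inside the KO range, and the log2 difference was -0.24 ± 0.11 (limma unadjusted p = 0.0567). Pcdh7 measured 8.65 ± 1.17 FPKM across WT and 8.73 ± 1.11 across KO (SD, n = 3 each), with a 95% interval of the log2 difference from -0.29 to 0.31. The class sum overlapped between groups, at 43.3 to 51.7 FPKM in WT and 42.1 to 53.9 FPKM in KO. All 12 protocadherin members summed to 94.8 to 107 FPKM in WT and 87.0 to 97.1 FPKM in KO, with overlap. Leaving out Pcdh1 was a choice made after its values were seen. The other 11 summed to 89.2, 83.5 and 79.1 FPKM across WT and 70.1, 71.1 and 76.8 across KO, without overlap. Because Pcdh1 had the highest log2 difference, leaving it out favours a lower KO sum, and no conclusion is drawn from this sum.

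Protocadherins outside the delta classes were lower in both tested genes, beside 48.5% of all tested genes below 0. Pcdh15, a tip-link protein of inner ear hair cells that in brain marks oligodendrocyte precursors, measured 1.41, 1.41 and 1.12 FPKM across WT and 0.834, 0.946 and 0.964 across KO. No values overlapped, KO stood at 69.8% of WT, and the log2 difference was -0.35 ± 0.13 (limma unadjusted p = 0.0314, adjusted p = 0.288). The gene spans chromosome 10 from 73099342 to 74649737. Pcdh20 measured 4.12, 4.17 and 3.70 FPKM across WT and 2.54, 2.30 and 4.34 across KO. KO replicate 3 was the highest of all 6 libraries and the other 2 KO libraries were the lowest. Its log2 difference was -0.38 with a limma unadjusted p of 0.105, and without KO replicate 3 it was -0.62 (limma unadjusted p = 0.00123, adjusted p = 0.208). That fit is given after the high value of KO replicate 3 was seen. Of 18 alternatives, it was the only 1 in which Pcdh20 had an unadjusted p under 0.05.

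The 7 members below the test's minimum had means of 0.0219 to 0.446 FPKM. Cdh1, E-cadherin of epithelia and brain coverings, had 4, 52 and 59 reads across WT and 63, 22 and 33 across KO. WT replicate 1 stood apart at 0.0474 FPKM (95% Poisson interval 0.0129 to 0.121), below the interval of every other library, the nearest being KO replicate 2 at 0.266 FPKM (0.167 to 0.402). The same library was lowest for Slc6a13, a transporter of meningeal fibroblasts, at 1.59 FPKM against 4.69 to 6.12 FPKM in the others. Dcn and Lum, further fibroblast markers, were also lowest there, at 1.64 and 0.399 FPKM, against at least 1.94 and 0.673 FPKM elsewhere. These markers were picked after their values were seen. Over all 8 meningeal and choroid plexus markers, the sum in WT replicate 1 (32.3 FPKM) was above every KO library (12.2 to 29.6 FPKM). The median deviation of the tested markers from the WT mean was lowest in WT replicate 1, at -0.47 (log2). The part of fibroblasts in the Cdh1 value was not tested. Cdh23, the partner of Pcdh15 in hair cell tip links, had 44, 28 and 36 reads across WT and 51, 52 and 57 across KO. Its KO values of 0.160, 0.170 and 0.190 FPKM lay above the WT values of 0.141, 0.0919 and 0.0978 FPKM, at a depth where the intervals of WT replicate 1 and each KO library overlap. Cdh26, Cdh3, Pcdh12, Cdh17 and Cdh16 had at most 10 reads in any library, and a difference was not detectable at this depth. Intervals cover counting error only.

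Members on the same chromosome often lie near each other, and several such neighbours measured lower together. On chromosome 14, Pcdh8, Pcdh17, Pcdh20 and Pcdh9 follow one another and Cdh24 lies further away, and all 5 had log2 differences below 0 (median -0.34). The same held for Cdh20, Cdh7 and Cdh19, within 6.21 Mb on chromosome 1 (median -0.30), for Pcdh10 and Pcdh18, within 4.38 Mb on chromosome 3, and for Cdh6, Cdh10, Cdh12 and Cdh18, within 10.4 Mb on chromosome 15 (median -0.11). Cdh22 and Cdh4, on chromosome 2, were both above 0. With 19 of 25 tested members below 0, shared directions within a chromosome are frequent, and their part was not tested. Chromosome 8, which carries Cntnap4 at 112570043 to 112882717, holds 6 members. Within 10 Mb of Cntnap4 lie Cdh1, Cdh3, Cdh16, Cdh11 and Cdh15, of which Cdh11 (log2 -0.11) and Cdh15 (0.15) were tested, and Cdh8 lies 13.2 Mb away.

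Lists of intracellular partners of cadherins had medians near or above 0. Their counts at an unadjusted p under 0.05 stand beside 8.36% higher and 6.85% lower over all tested genes, and with 9 to 14 genes a list, 1 gene is close to that share. Among 9 tested catenins and relatives, 2 were lower and 1 higher at an unadjusted p under 0.05 and 0 passed after adjustment in limma (median log2 0.01). Ctnnb1, beta-catenin, which binds the tails of classical cadherins, measured 87.3, 87.0 and 96.9 FPKM across WT and 76.6, 80.8 and 77.2 across KO, without overlap. Ctnna2, the neuronal alpha-catenin, measured 24.3, 23.0 and 23.0 FPKM across WT and 21.0, 19.9 and 19.7 across KO. Both had a log2 difference of -0.21 (limma adjusted p = 0.287 and 0.249). Jup, plakoglobin, a close relative of beta-catenin, was on the other side at 6.21, 6.68 and 5.88 FPKM across WT and 7.30, 8.76 and 7.74 across KO (log2 0.32, limma adjusted p = 0.229). Ctnnd1, p120-catenin, which holds cadherins at the surface, had every KO value above every WT value, with a log2 difference of 0.28 and a limma unadjusted p of 0.0639.

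Actin linkers of junctions had 3 higher and 0 lower genes of 9 at an unadjusted p under 0.05 (median 0.03), namely Actn4 (log2 0.28), Actn1 (0.53) and Zyx (0.22), and 0 passed after adjustment in limma. Proteases that cut cadherins, among them the gamma-secretase subunits, had 2 higher and 0 lower of 13 (median 0.03), Ncstn (0.19) and Mmp9 (0.44). Over all tested genes 8.36% were higher and 6.85% lower at that p. WAVE complex genes and other cytoplasmic partners of protocadherins had 3 higher and 1 lower of 14 (median 0.13). Wasf1, the neuronal WAVE protein, measured 38.8, 34.0 and 34.2 FPKM across WT and 50.3, 72.5 and 45.7 across KO (log2 0.62, limma adjusted p = 0.220), highest in KO replicate 2. Ppp1ca (0.33) and Cyfip2 (0.31) were also above 0, and Cyfip1 (-0.19) below. Among 13 tested members of other cadherin families, 1 was higher and 0 lower (median 0.01). That single gene, a share close to that of all tested genes, was Clstn1, calsyntenin 1, at 181, 160 and 171 FPKM across WT and 216, 239 and 199 across KO (log2 0.35, limma adjusted p = 0.220).

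In several lists of cell type markers all tested genes lay on one side of 0, and 0 markers passed after adjustment in limma. Over all tested genes 48.5% were below 0. Excitatory pallial neuron markers were above 0 in 10 of 10 genes, summing to 341 to 405 FPKM in WT and 600 to 890 FPKM in KO, highest in KO replicate 2. Striatal medium spiny neuron markers were above 0 in 8 of 8, summing to 768 to 1031 FPKM in WT and 1100 to 1563 FPKM in KO. Oligodendrocyte markers were below 0 in 8 of 8, summing to 1227 to 1648 FPKM in WT and 744 to 1132 FPKM in KO. Cholinergic neuron markers were below 0 in 5 of 5, at 75.6 to 81.9 FPKM in WT and 38.1 to 59.7 FPKM in KO, and hypothalamic and thalamic markers in 7 of 7 tested, at 506 to 976 FPKM in WT and 14.6 to 1084 FPKM in KO. Oligodendrocyte precursor markers were below 0 in 6 of 6 (84.1 to 110 FPKM in WT and 61.2 to 93.5 FPKM in KO), as were microglial markers in 6 of 6 (146 to 168 and 129 to 153 FPKM). Some sums rest mostly on few genes. Nrgn and Camk2a made up 228 and 129 FPKM of the excitatory list's WT mean of 370 FPKM. Avp and Oxt made up 609 and 170 FPKM of the hypothalamic and thalamic list's WT mean of 805 FPKM. Bcas1 alone made up 52.9 FPKM of the precursor list's WT mean of 94.3 FPKM. Gpr17 and Enpp6 had the lowest log2 differences of that list, both -0.49, and its other genes, Pdgfra and Cspg4 among them, lay between -0.25 and -0.08. The hypothalamic, precursor and microglial sums overlapped between the groups, whereas the excitatory, striatal, oligodendrocyte and cholinergic sums did not.

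Interneuron, astrocyte and vascular markers were mixed. Interneuron markers were below 0 in 4 of 8 (650 to 770 FPKM in WT and 737 to 865 FPKM in KO), astrocyte markers in 4 of 6 (457 to 486 and 415 to 546 FPKM) and endothelial and pericyte markers in 3 of 8 (115 to 158 and 123 to 135 FPKM). Meningeal and choroid plexus markers were below 0 in 3 of 6 tested. The sums over all 8 markers of that list did not overlap, at 32.3 to 40.0 FPKM in WT and 12.2 to 29.6 FPKM in KO. No marker was at 0 in all libraries, and Sim1 (hypothalamic) and Folr1 (choroid plexus) were at 0 in KO replicate 2. The part of these cell types in the member differences was not tested. Which KO library was lowest differed between members. Cdh20, Cdh24, Pcdh11x and Pcdh20 were lowest in KO replicate 2, as the oligodendrocyte sum was, although Opalin was lowest in KO replicate 1. Pcdh15, Pcdh18, Pcdh10, Pcdh9 and Cdh7 were lowest in KO replicate 1, and Pcdh17 and Cdh8 in KO replicate 3. Such ranks can lie within counting error. For Pcdh15 the 95% Poisson intervals of KO replicates 1 and 2 overlapped (0.752 to 0.923 and 0.856 to 1.04 FPKM). Pcdh1, highest in KO replicate 2 with 25.4 FPKM, had the same highest library as the excitatory and striatal lists.

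**Figure D4:**
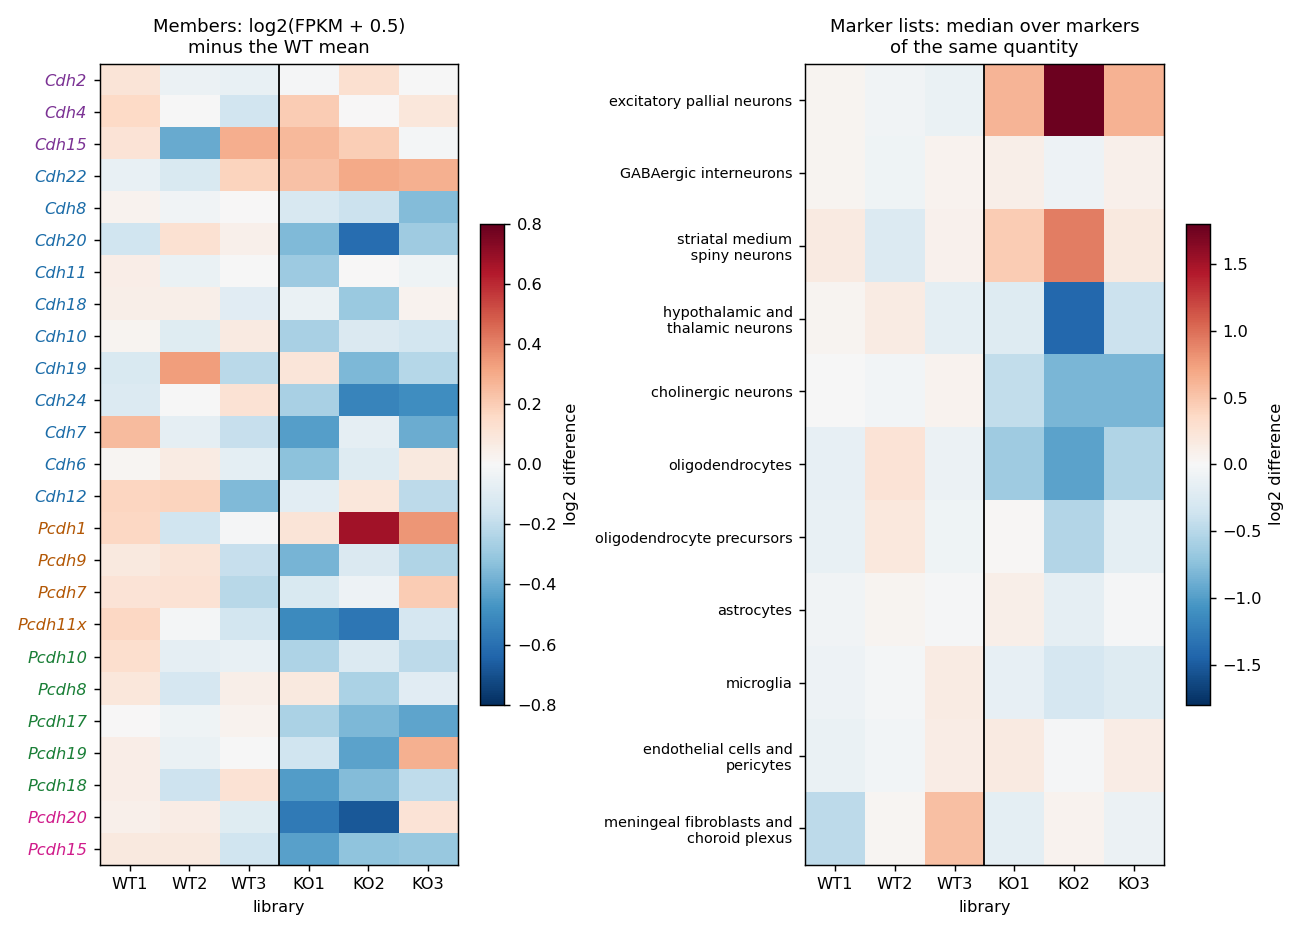
Left, log2(FPKM + 0.5) of each tested member in each library minus its WT mean; right, the median of the same quantity over each list of cell type markers, on a wider colour scale (log2 units, blue lower and red higher). KO replicate 2 lies farthest from WT in the excitatory, striatal and hypothalamic lists, and among members it is the highest library for Pcdh1 and the lowest for Cdh20. For Pcdh20 and Pcdh11x, KO replicate 3 lies apart from the other KO libraries.

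The members' median level relative to the WT mean was 0.06, -0.03 and -0.06 (log2) across WT and -0.25, -0.12 and -0.14 across KO. Over all tested members KO replicate 1 was the lowest and KO replicate 2 the nearest to WT. By the same median, KO replicate 2 was the KO library farthest from WT in the excitatory, striatal, hypothalamic and oligodendrocyte lists. The part of these cell types in the member medians was not tested. Protocadherins alone stood at -0.25, -0.32 and -0.14 across KO, where KO replicate 2 was the lowest. Cadherins alone stood at -0.11, -0.09 and -0.09 across KO. Without KO replicate 2, 19 of 25 members stayed below 0 with a median of -0.16, and without KO replicate 1 the count was 19 and the median again -0.16. Pcdh17, Cdh20 and Cdh24 had an unadjusted p under 0.05 in every alternative in which they were tested, namely 19, 19 and 18 alternatives. The other 6 members with an unadjusted p under 0.05 lost it in some. Under no alternative did a member pass after adjustment, and the smallest adjusted p of a member was 0.116 (Pcdh17, voom on recovered reads).

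**Figure D5:**
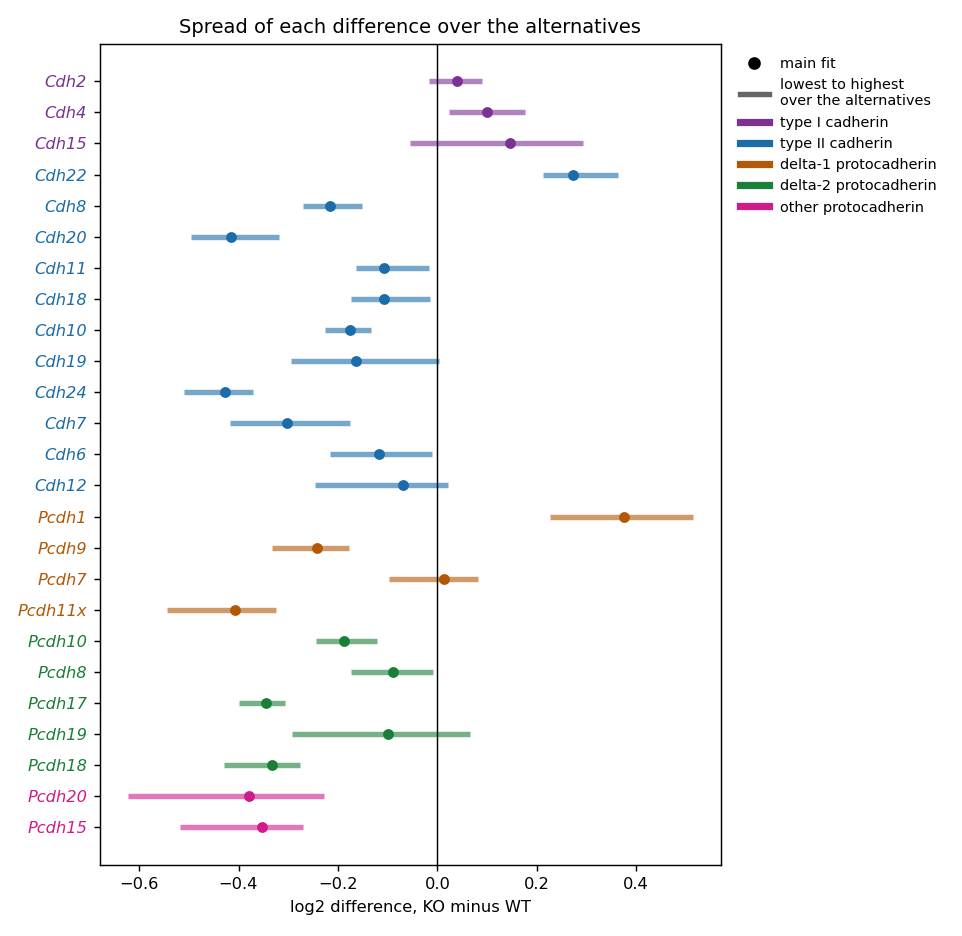
Log2 difference, KO minus WT, of each tested member under the main settings (points) and its lowest to highest value over the alternatives, left-out libraries included (bars). The bars of 19 members stay on one side of 0, and those of Cdh2, Cdh12, Cdh15, Cdh19, Pcdh7 and Pcdh19 cross it.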

How the data were processed

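RNA from 3 WT and 3 KO samples was sequenced with a SMARTer mRNA library kit, per the labels' protocols. The genome build is GRCm38 per the submitters' processing notes, and no aligner, counter, annotation release or use of strand is named in the sources read. The authors deposited 1 table of FPKM values with gene coordinates and lengths, and 0 sample columns were left unmatched. FPKM times gene length gave whole multiples of 1 step per library for 100% of nonzero values (within 0.01 of a whole read), and these were taken as reads.

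Differences were tested by limma-trend with a robust prior (limma 3.58.1, R 4.3.3) on log2(FPKM + 0.5), for genes averaging 0.5 FPKM or more. Such fold changes understate the change of low genes. Cntnap4 was tested by exact permutation. On simulated reads with known changes the test recovered most of them, but its false calls exceeded the nominal rate. Whether it recovers differences as small as those of the members was not tested.

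Members, classes and lists were chosen with earlier results of these data known. Values in every sample are given for members with an unadjusted p under 0.05, without overlap, among the 5 highest means or with the largest difference of their class. Slc6a13, Dcn, Lum, Slc17a7, Avp, Xist and some overlapping members (Pcdh8, Pcdh19, Cdh1, Cdh23) were named after their values were seen. From each pathway list up to 4 genes with the smallest p were named. Alternatives were other pseudocounts, filters, scalings, settings of empirical Bayes, the replicate number as a block, voom on recovered reads, protein-coding genes only and leaving out each library. A minimum of 10 reads in each library and removal of the length trend were added after seeing the data. How shared reads of overlapping genes were counted is not known.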

Additional observations from a re-analysis of the deposited data

How the results depend on the processing

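Over 19 alternatives, 19 of the 25 members kept the sign of their log2 difference and 12 of 461 member values changed sign, all for members with small differences. With an equal FPKM sum per library Cdh2 was -0.0173 and Pcdh7 -0.0409, and under quantile normalization Pcdh7 was -0.0046. With each library left out Cdh2 ran from -0.0046 to 0.0903, Pcdh7 from -0.0973 to 0.0819, Cdh12 from -0.246 to 0.0220, Cdh15 from -0.0542 to 0.293, Cdh19 from -0.295 to 0.0033 and Pcdh19 from -0.292 to 0.0647. Members with an unadjusted p under 0.05 numbered 9 (7 lower). They numbered 5 (3 lower) of 11 at a mean of at least 5 FPKM, where the median was -0.0903, and voom on recovered reads gave 11 lower. With each library left out the count ran from 4 to 8, and that of lower members from 3 to 7: 4 without WT replicate 1 (3 lower), 4 without WT replicate 2 and 4 lower without KO replicate 1. The median over members ran from -0.21 to -0.14 with a library left out.

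The number of genes passing over all genes was 2. It was 0 with a pseudocount of 0.1, with no filter, at 5 FPKM, with the replicate block, with voom, for protein-coding genes only and with 10 reads per library. It was 1 under quantile normalization and with the length trend removed, and 5 with an equal FPKM sum. With a library left out it ran from 0 to 9: 9 without KO replicate 1, 1 without KO replicate 2 and 0 without each of the others. The cause was not tested. With an equal sum, genes with an unadjusted p under 0.05 were 1320 lower and 660 higher, against 1106 and 1351, and members 8 lower and 0 higher, against 7 and 2. The labels give no pairing: same-numbered samples correlated at -0.09, -0.14 and -0.07 in their deviations, and no sample correlated best with its own number. The replicate block left 5 members (4 lower) at an unadjusted p under 0.05. Within 20 Mb of Cntnap4 the median of 3 tested members was -0.11, against 0.02 for 2 within 10 Mb, and 0 tested members lay within 5 Mb. Cntnap4 measured lower in KO in every alternative run for it, from -1.35 to -0.80 with a library left out.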
